A study of Mus musculus with 2 samples.

Results

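Cxcr6, a chemokine receptor, and Cxcl16, its ligand, were followed across the cell classes of 2 single-cell RNA libraries of mouse brain bearing G422 glioma. Both genes were matched by symbol, and they are 2 of the 27998 genes counted. The LTS library came from Kunming mice that survived beyond 100 days after combined therapy, received the tumour again in the contralateral hemisphere and again outlived 100 days. The control library came from untreated Kunming mice, 7 days after G422 cells were placed in the brain. Day 7 is also given for the LTS harvest, but the sources used here do not make clear which inoculation it counts from. Both groups thus carried the same implanted line and differed in treatment, survival and number of inoculations at once, and these cannot be told apart. Brains were digested, filtered at 40 µm and spun on Percoll, and cells of the interphase between 70% and 37% Percoll went into 3′ version 3 droplet chemistry. There was 1 library per group, and how many animals each held is not stated in the sources used here, so no difference was tested and no p-value is given.

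Cxcr6 is a G protein-coupled receptor found on effector and tissue-resident T cells and on natural killer T cells. Cxcl16 is unusual among chemokines in being made as a transmembrane protein, which binds Cxcr6-bearing cells at the cell surface, takes up oxidized lipoprotein as a scavenger receptor, and is released in soluble form by the proteases Adam10 and Adam17. Macrophages and dendritic cells are its best known producers.

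A barcode was kept as a cell at 1000 or more unique molecular identifiers (UMIs, each standing for 1 captured transcript), 300 or more genes and at most 15% mitochondrially encoded UMIs. This left 4835 LTS cells with a median of 18779 UMIs and 8310 control cells with a median of 14889.5. All UMIs summed to 149413534 in LTS and 165796852 in control. The kept cells held 1192 Cxcr6 UMIs in LTS and 130 in control, and 2917 Cxcl16 UMIs in LTS and 2758 in control. The libraries had 13 kept barcodes in common, which held 3 Cxcr6 and 10 Cxcl16 UMIs in LTS, and 0 and 4 in control. Empty droplets carried free RNA, with a mean of 413 UMIs in LTS and 619 in control, and in them Cxcr6 stood at 3.61 counts per 1000000 UMIs (CPM; 2.76 to 4.65) in LTS and 0.745 (0.473 to 1.12) in control. All intervals are exact 95% intervals, which cover counting error only and leave out animal-to-animal differences.

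Classes were named from marker genes that include neither Cxcr6 nor Cxcl16. The T cell-like class had all 8 of its 8 counted markers in at least 10% of its cells in both libraries. The microglia-like class had 9 of 9, and the monocyte-like class 7 of 8. The class called conventional dendritic cell-like also held transcripts of plasmacytoid dendritic cells, so it is a mixture. Most of the kept cells, 2594 in LTS and 5269 in control, fell in clusters that were given no host cell type and had little of the leukocyte gene Ptprc, and these are called unnamed non-immune.

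In the mouse genome (GRCm38, GENCODE M21), Cxcr6 (ENSMUSG00000048521) lies on the plus strand at chr9:123806475-123811760, and its 2 coding transcripts have 2 exons each. All 5286 bases of it lie inside Fyco1, a gene on the minus strand. The 250 bases before the RefSeq start of Cxcr6 (GRCm38.p6, chr9:123806227-123806476, plus strand, 5′ to 3′) are shown because the transcript had its highest level in T cells and because RUNX and T-box factors are among the transcription factors examined beside it. Capitals mark the 1 match to the RUNX core letters TGTGGT, read here on the opposite strand as ACCACA, 10 to 5 bases before the start.
Cxcr6: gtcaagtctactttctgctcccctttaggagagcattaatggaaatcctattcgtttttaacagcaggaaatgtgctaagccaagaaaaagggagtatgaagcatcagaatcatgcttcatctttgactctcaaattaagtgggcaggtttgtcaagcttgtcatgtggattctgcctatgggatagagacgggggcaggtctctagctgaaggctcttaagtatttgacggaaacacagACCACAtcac
The RUNX letters occur on either strand in 14% of the 32851 mouse windows of this length. The T-box letters AGGTGTGA, searched on both strands, are not in this window and occur in 1.12% of all windows. Cxcl16 (ENSMUSG00000018920) lies on the minus strand at chr11:70453983-70459984 and has 1 coding transcript of 5 exons. Its 5′ end shares 552 bases with Zmynd15, which runs the other way from chr11:70459433-70466202.

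Most UMIs of the receptor in LTS were in T cell-like cells, and most of the ligand in both libraries was in macrophage-lineage cells. T cell-like cells held 1076 of the 1192 Cxcr6 UMIs in LTS (90.3%, 88.4 to 91.9) and 64 of 130 in control (49.2%, 40.4 to 58.1), although they were only 9.89% of the kept cells in LTS and 1.16% in control. Microglia-like and monocyte-like cells, the resident and the recruited macrophage lineages of the brain, together held 69.9% (68.2 to 71.5) of the Cxcl16 UMIs in LTS and 63.3% (61.5 to 65.1) in control. They were 17.8% of the kept cells in LTS and 14.2% in control. T cell-like cells held 21 Cxcl16 UMIs in LTS and 7 in control, and 14 of the LTS ones came from 1 cell. The unnamed non-immune cells, which held most UMIs of all genes, had 94 of the Cxcr6 UMIs in LTS (7.89%) and 62 in control (47.7%, 38.9 to 56.6). They also had 474 Cxcl16 UMIs in LTS (16.2%) and 600 in control (21.8%), so in control 1 class held a large part of both genes at a low level per UMI.

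**Figure D1:**
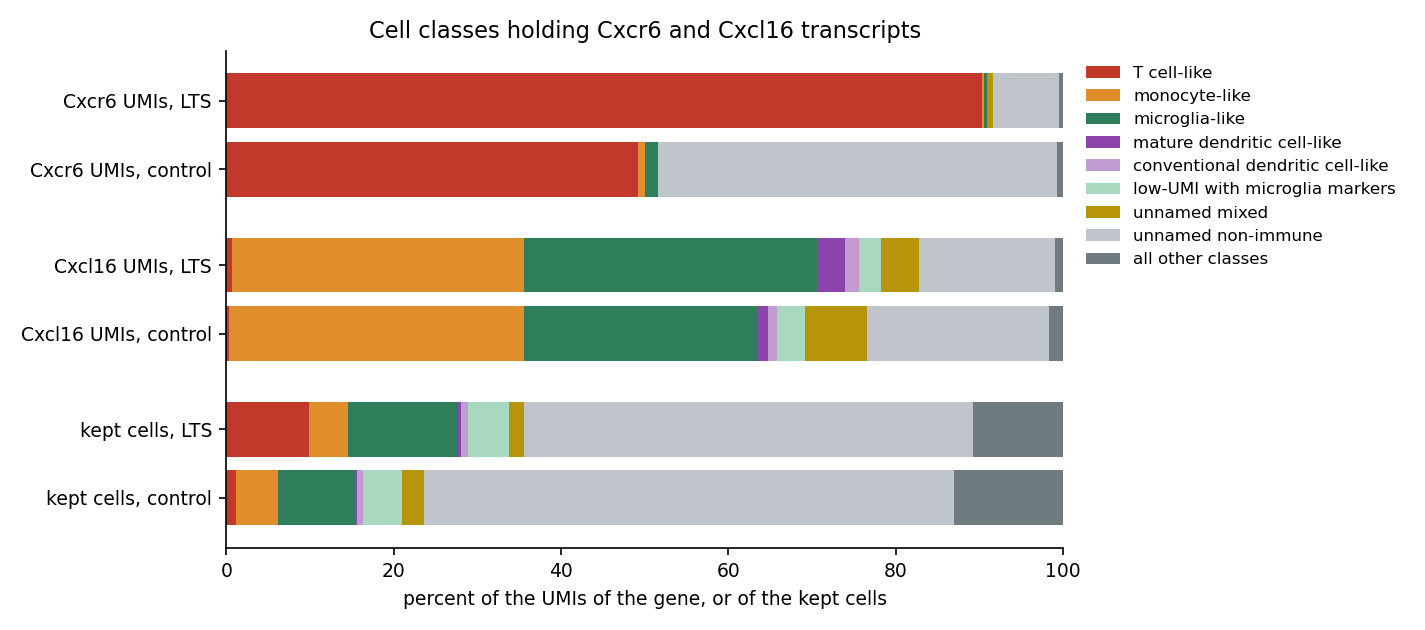
Each bar splits the UMIs of Cxcr6, the UMIs of Cxcl16 or the kept cells of 1 library over cell classes, in percent. T cell-like cells (red) take 90.3% of the Cxcr6 UMIs in LTS and 49.2% in control, while monocyte-like (orange) and microglia-like cells (green) take most of the Cxcl16 UMIs in both libraries.

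Counted over whole libraries, Cxcr6 was at 9.69 CPM in LTS cells and 1.03 CPM in control cells, a ratio of 9.37 (7.81 to 11.3). Cxcl16 was at 23.7 CPM in LTS against 21.9 CPM in control, a ratio of 1.08 (1.03 to 1.14). The receptor therefore differed between the libraries by a larger ratio than the ligand. T cell-like cells numbered 478 in LTS and 96 in control. Cells with a Cxcr6 UMI inside the T cell-like class numbered 354 in LTS and 27 in control. Cells with a Cxcl16 UMI in the microglia-like, monocyte-like and both dendritic classes numbered 568 in LTS and 715 in control. There were thus 1.60 such ligand-bearing myeloid cells for each receptor-bearing T cell in LTS and 26.5 in control.

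Within the T cell-like class Cxcr6 was also higher in LTS. Its level was 593 CPM (558 to 630) in LTS against 216 CPM (166 to 276) in control, a ratio of 2.75 (2.13 to 3.59) and a log2 ratio of 1.44 with 5 CPM added to each level. The log2 ratio was at percentile 98.7 of the 7117 genes tested in the class, whose median was -0.19. A Cxcr6 UMI was found in 74.1% of LTS and 28.1% of control T cell-like cells, at median depths of 3231 UMIs in LTS and 2093 in control. After each cell was thinned to 1000 UMIs, 43.7% (39.2 to 48.3) of the LTS cells and 14.6% (8.21 to 23.3) of the control cells kept one. In microglia-like cells, a lineage not known for the receptor, 0.789% of LTS and 0.262% of control cells had a Cxcr6 UMI unthinned, at median depths of 6368 UMIs in LTS and 5577 in control. The unnamed non-immune cells were far deeper, with medians of 40555.5 UMIs in LTS and 20132 in control, and 3.12% of them in LTS against 1.16% in control had a Cxcr6 UMI unthinned.

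The Cxcr6 UMIs were spread over many LTS cells and few control cells. In LTS 124 T cell-like cells had 0 Cxcr6 UMIs, 87 had 1, 200 had 2 to 4 and 67 had 5 or more. In control 69 cells had 0, 11 had 1, 13 had 2 to 4 and 3 had 5 or more. The highest cell had 10 UMIs in LTS and 9 in control, so single control cells reached the LTS range while most had none detected. The 10 cells with most Cxcr6 held 8.09% of the class's Cxcr6 UMIs in LTS and 62.5% in control.

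**Figure D2:**
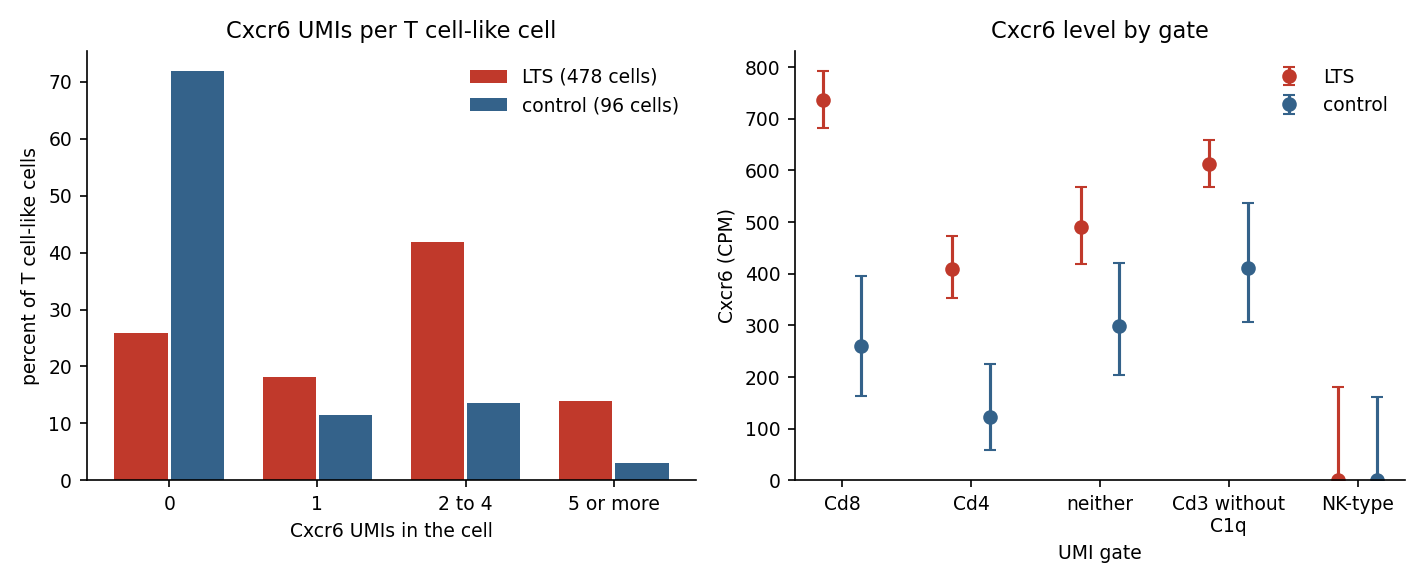
Left, percent of T cell-like cells by their number of Cxcr6 UMIs (478 LTS and 96 control cells). Right, Cxcr6 level in CPM by UMI gate, with exact 95% Poisson intervals. LTS points lie above control points in the Cd8, Cd4, neither and Cd3 without C1q gates, and both libraries are at 0 in the NK-type gate.

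The T cell-like cells were divided by co-receptor transcripts, Cd8a and Cd8b1 of cytotoxic T cells and Cd4 of helper and regulatory T cells. Cells with Cd8a or Cd8b1 and without Cd4 numbered 266 in LTS and 20 in control, and their Cxcr6 level was 736 CPM (683 to 792) in LTS against 261 CPM (163 to 395) in control, a ratio of 2.82 (1.85 to 4.53). Cells with Cd4 alone numbered 95 in LTS and 18 in control, with Cxcr6 at 409 CPM (353 to 472) in LTS against 122 CPM (58.6 to 225) in control, a ratio of 3.35 (1.78 to 7.09). Cxcr6 was thus higher in LTS in both co-receptor gates, but the control values rest on few UMIs, 22 in the Cd8 gate and 10 in the Cd4 gate. Without the cell holding most of them the control Cd8 gate was at 164 CPM. Without cells holding both Cd3 and C1q transcripts the Cd8 gate was at 728 CPM (665 to 795) in LTS against 473 CPM (296 to 716) in control, and the Cd4 gate at 445 CPM (370 to 529) in LTS against 287 CPM (124 to 565) in control, with overlapping intervals. Cells with neither co-receptor detected, 109 in LTS and 50 in control, had 490 CPM in LTS against 299 CPM in control, a ratio of 1.64 (1.12 to 2.47). Those of them with a Cd3 UMI, 104 in LTS and 42 in control, had 487 CPM in LTS against 336 CPM in control. The ratio there was 1.45 (0.987 to 2.18), which includes 1.

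In LTS the Cd8 gate stood above the Cd4 gate, with a ratio of 1.80 (1.53 to 2.12). In control the same ratio was 2.13 with an interval of 0.969 to 5.05, which includes 1. The Cd8 gate made up 55.6% of the T cell-like cells in LTS and 20.8% in control, and it held 66.0% of their Cxcr6 UMIs in LTS and 34.4% in control. The class therefore also differed in composition between the libraries. Cxcr6 was at 0 in natural killer-type cells, which have Ncr1 or Klrb1c and no Cd3 transcript, but these were only 5 cells in LTS and 8 in control and, at a limit of 3 counts, allow up to 146 CPM in LTS against 131 CPM in control. Of the cells with Foxp3, the factor that defines regulatory T cells, 1 of 11 in LTS and 0 of 8 in control had Cxcr6.

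The Cxcr6 difference ran beside a difference in T cell transcripts as such. Cd3d, Cd3e and Cd3g, the signalling chains of the T cell receptor complex, summed to 2493 CPM in LTS against 1067 CPM in control T cell-like cells, a ratio of 2.34 (2.08 to 2.63). Set against them, Cxcr6 had 23.8 UMIs per 100 Cd3 UMIs in LTS and 20.3 in control, a ratio of 1.18 (0.913 to 1.54), which includes 1. A Cd3 UMI was found in 97.1% of the LTS and 80.2% of the control cells of the class, and the 8 T cell markers summed to 4205 CPM in LTS against 1878 CPM in control.

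Transcripts of macrophages and free RNA were also unequal in the class. C1qa, C1qb and C1qc, the complement chains made by macrophages, summed to 208 CPM in LTS against 466 CPM in control T cell-like cells, whereas the 9 microglia markers summed to 183 CPM in LTS against 179 CPM in control. Free RNA was estimated at 10.9% of the class's UMIs in LTS and 20.1% in control, and taking it off left a Cxcr6 ratio of 2.46. LTS cells with a C1q UMI had Cxcr6 at 573 CPM and those without at 604 CPM, while control cells had 82.7 CPM with and 325 CPM without C1q. Among cells with a Cd3 and no C1q UMI, 318 in LTS and 48 in control, Cxcr6 was at 613 CPM (569 to 659) in LTS against 410 CPM (307 to 537) in control. The ratio there was 1.49 (1.13 to 2.01), and per Cd3 UMI it was 0.897 (0.678 to 1.21). The part of macrophage transcripts in the difference over the whole class was not tested beyond these values.

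**Figure D3:**
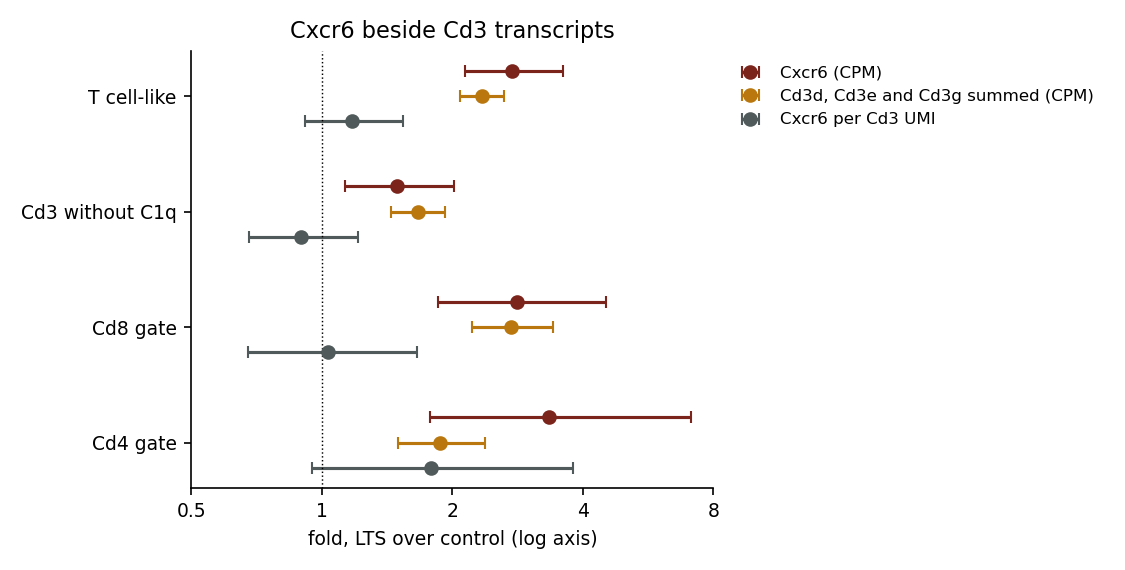
Fold of LTS over control, on a log axis with exact 95% intervals, for Cxcr6 (CPM), for Cd3d, Cd3e and Cd3g summed (CPM) and for Cxcr6 per Cd3 UMI, in the whole T cell-like class and in 3 gates of it. The Cxcr6 fold is 2.75 in the class and 1.49 in cells with Cd3 and no C1q, and the interval of Cxcr6 per Cd3 UMI includes 1 in all 4 rows.

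Genes of tissue residency, which hold T cells in an organ, were compared in the same cells. Genes were tested where they reached 20 CPM in either library, and 4.06% of all 7117 tested genes were at least 2-fold higher in LTS while 9.16% were at least 2-fold lower. Of 13 residency genes 11 were tested. Of these, 3 were at least 2-fold higher, 0 were 2-fold lower, and the list's median log2 ratio was 0.47 against -0.19 over all tested genes. Itgae, which encodes the αE integrin CD103 that binds E-cadherin, was at 175 CPM in LTS against 23.6 CPM in control (log2 ratio 2.65). Its ratio was 7.40 (3.55 to 18.5), with 7 UMIs in control. Cdh1, E-cadherin itself, was at 66.7 CPM in LTS against 10.1 CPM in control (log2 ratio 2.25), a ratio of 6.59 (2.20 to 32.4) with 3 UMIs in control. Itga1, a collagen-binding integrin chain, was at 52.9 CPM in LTS against 20.3 CPM in control (log2 ratio 1.20), a ratio of 2.61 (1.16 to 7.30) with 6 UMIs in control. Xcl1, a chemokine of cytotoxic lymphocytes, had a log2 ratio of 0.96. Of the 11 tested genes, 9 had log2 ratios above 0 and 2 below. Those below were Rgs2 at -0.73 (ratio 0.575, 0.351 to 0.984) and Prdm1 at -0.005. The summed Cd3 transcripts of the same class had a ratio of 2.34 (2.08 to 2.63). The interval of the Itgae ratio lay above that value, and those of Cdh1 and Itga1 included it. The other tested residency genes had ratios below it. The Cd3 difference, the larger share of Cd8-gated cells and the lower C1q level of the LTS class stand beside these values. Their part in them was not tested.

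Most genes of circulation and lymph node homing had log2 ratios below 0. Of the 7 members of that list tested and reported here 0 were 2-fold higher and 2 were 2-fold lower in LTS, and their median log2 ratio was -0.51, with 6 below 0. The exception was S1pr4, a sphingosine 1-phosphate receptor, with 145 UMIs in LTS and 18 in control (log2 ratio 0.37, ratio 1.32, 0.804 to 2.28). Ccr7, the lymph node homing receptor, was at 4.96 CPM in LTS against 27.0 CPM in control (log2 ratio -1.68), from 9 UMIs in LTS and 8 in control. Klf3, a Krüppel-like transcription factor, had a log2 ratio of -1.39. Klf2, which drives the egress receptor S1pr1, stood at 51.8 CPM in LTS against 108 CPM in control (log2 ratio -0.99). The log2 ratios of Ccr7, Klf3 and Klf2 were below the class median, which was itself below 0 at -0.19. S1pr1 had a ratio of 0.698 (0.357 to 1.49), Tcf7 0.720 (0.421 to 1.30) and Lef1 0.666 (0.358 to 1.33). The intervals of these last genes include 1. Klf2 and Klf3 are not particular to T cells: in microglia-like cells Klf2 was at 184 CPM in LTS against 194 CPM in control and Klf3 at 120 CPM in LTS against 95.3 CPM in control, and in empty droplets Klf2 was at 54.0 CPM in LTS against 49.2 CPM in control. The lower C1q level and free RNA share of the LTS T cell-like class given above stand beside these values, and their part in them was not tested.

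Among 7 tested transcription factors of Cxcr6-positive lymphocytes, 1 was 2-fold higher and 0 were 2-fold lower, with a median log2 ratio of 0.04. This was Id2, an inhibitor of E proteins in effector lymphocytes, at 1047 CPM in LTS against 466 CPM in control (log2 ratio 1.16). Runx3, a RUNX factor of cytotoxic T cells, had a log2 ratio of 0.49, the T-box factor Tbx21 one of 0.13 and Batf one of -0.20. Of other chemokine receptors 5 are reported here, which is not the whole list, so no share of it is given. Cxcr3, the receptor of interferon-induced chemokines, had a log2 ratio of 0.53 and Ccr2, a receptor of monocyte-attracting chemokines, one of 0.08. Ccr1, Ccr7 and Cx3cr1 had log2 ratios of -1.81, -1.68 and -1.28, and Ccr1 and Cx3cr1 are also expressed by macrophages. The Ccr1 value rests on 4 UMIs in LTS and 6 in control.

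**Figure D4:**
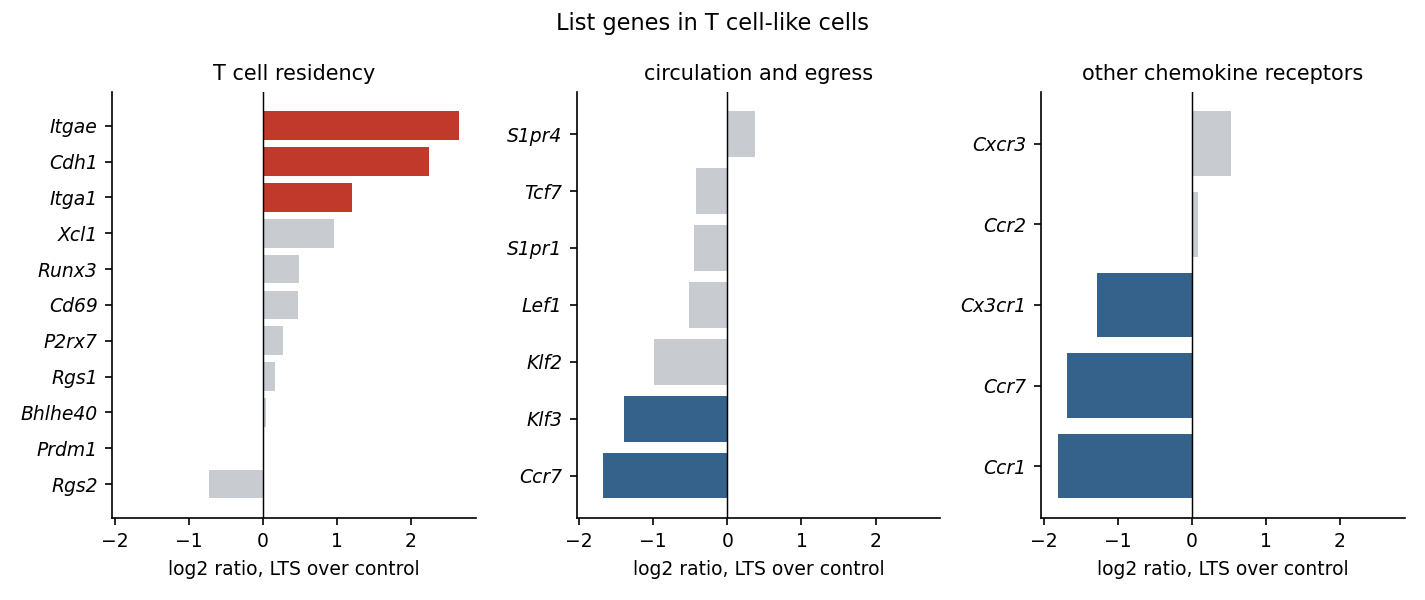
Log2 ratio of LTS over control in T cell-like cells for the tested genes of 3 lists that are reported here, with red bars at least 2-fold higher and blue bars at least 2-fold lower in LTS. Itgae, Cdh1 and Itga1 reach 2-fold among residency genes, and Ccr7 and Klf3 are at least 2-fold lower among circulation genes.

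Genes that act on or with the pair were counted in the same T cell-like cells. Of 7 tested genes of shedding and receptor signalling, 0 were past 2-fold, with the G protein subunits Gnai3 at a log2 ratio of -0.56 and Gnai2 at -0.17, the kinase Pik3cg at -0.22 and the sheddase Adam17 at -0.19. Of 3 tested genes of interleukin 15 presentation and reception, 1 was 2-fold higher, Il15ra with 37 UMIs in LTS and 2 in control (ratio 3.02, 0.779 to 25.9), while Il2rb and Il2rg had log2 ratios of -0.05 and 0.01. Of 10 tested genes that induce Cxcl16 or receive those signals, 0 were 2-fold higher and 1, the interferon-γ receptor chain Ifngr2, was 2-fold lower (log2 ratio -1.55). Of 10 other chemokines tested, Ccl5 was 2-fold higher, at 6871 CPM in LTS against 1908 CPM in control. Cxcl9, Cxcl2 and Cxcl10 were 2-fold lower, each from at most 18 control UMIs. Of 14 dissociation stress genes tested, 2 were 2-fold higher, Btg2 and Egr1, and 0 were 2-fold lower, with a median log2 ratio of -0.38. The single tested scavenger receptor, Cd68, had a log2 ratio of -0.34.

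Within each library, T cell-like cells that kept a Cxcr6 UMI after thinning were also compared with those that did not. Before thinning, 354 LTS and 27 control cells of the class had a Cxcr6 UMI, so the second set includes Cxcr6-bearing cells. In LTS 209 T cell-like cells kept a Cxcr6 UMI and 269 did not, and for 2 of 64 genes examined the intervals of the shares did not overlap. Id2 was found in 67.9% (61.2 to 74.2) of cells with and 47.2% (41.1 to 53.4) of cells without Cxcr6. Tcf7, a factor of naive and memory T cells, was found in 1.44% (0.297 to 4.14) of cells with and 7.81% (4.90 to 11.7) of cells without Cxcr6. The 64 genes were a chosen set, and no such count over all genes is given here. Whether 2 of 64 is more than among other genes therefore cannot be said. Itgae was found in 13.9% of cells with and 10.8% of cells without Cxcr6, with overlapping intervals, so a difference of Itgae with Cxcr6 detection was not detectable at this depth. In control, 14 cells with and 82 without Cxcr6 gave 0 genes with intervals apart, and Id2 was found in 57.1% (28.9 to 82.3) and 26.8% (17.6 to 37.8) of them.

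Outside the T cell-like class Cxcr6 was low. It had 116 UMIs over 4357 LTS cells (0.957 CPM) and 66 UMIs over 8214 control cells (0.526 CPM), where free RNA, taken as the content of 1 empty droplet per cell, would give 6.50 UMIs in LTS and 3.79 in control. Most lay in the unnamed non-immune cells, with 94 UMIs in 81 LTS cells (0.879 CPM) and 62 UMIs in 61 control cells (0.559 CPM). Free RNA taken in the same way would give 3.87 of those UMIs in LTS and 2.43 in control. No doublets were removed, and the source of the Cxcr6 UMIs in the unnamed non-immune cells was not tested. After thinning, 0.0386% of those cells in LTS and 0.0569% in control kept a Cxcr6 UMI, which is 1 cell in LTS and 3 in control. Microglia-like cells had 5 Cxcr6 UMIs in LTS and 2 in control, and monocyte-like cells 3 in LTS and 1 in control. Cxcr6 had 0 UMIs in the endothelial, choroid plexus and both dendritic classes of both libraries. Of 6 Cxcr6 UMIs in LTS B cell-like cells, 5 were in 1 cell.

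Across 23 class-by-library profiles the genes with levels most like those of Cxcr6, by Pearson's r of log2(CPM + 5), included Klrc2 (0.984), Bcl11b (0.977), Sh2d2a (0.976), Cd28 (0.972) and Izumo1r (0.970), out of 6442 genes ranked. Bcl11b is a transcription factor of the T lineage and Cd28 a co-stimulatory receptor. Their r values describe profiles that share 2 libraries and rest largely on the T cell-like class. Fyco1, whose transcript runs across Cxcr6 on the other strand, was at 41.4 CPM in LTS against 23.6 CPM in control T cell-like cells, but also at 27.8 CPM in LTS against 22.7 CPM in control microglia-like cells, where Cxcr6 was almost not detected. The sources used here do not say whether counting used strand, so reads of these genes cannot be told apart with certainty.

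The ligand was highest in monocyte-like and mature dendritic cell-like cells. In monocyte-like cells Cxcl16 stood at 719 CPM (675 to 764) in LTS against 680 CPM (638 to 724) in control, a ratio of 1.06 (0.967 to 1.16) and a log2 ratio of 0.08. With free RNA taken off the ratio was 0.930. After thinning, 50% (43.3 to 56.7) of 226 LTS and 43.9% (39.1 to 48.8) of 417 control monocyte-like cells had a Cxcl16 UMI. The intervals overlap, and the ratio's interval includes 1. Cells of the class with Ly6c2, a marker of inflammatory monocytes, had 708 CPM in LTS against 660 CPM in control. Those without it had 731 CPM in LTS against 701 CPM in control, so the pooled level was close across this division. The thinned shares in LTS were 55.9% (47.1 to 64.4) with and 41.1% (30.8 to 52.0) without Ly6c2, with overlapping intervals. In control they were 43.4% with and 44.6% without it.

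Microglia-like cells had less Cxcl16 per UMI. Their level was 192 CPM (180 to 204) in LTS against 169 CPM (157 to 181) in control, a ratio of 1.14 (1.03 to 1.25) and a log2 ratio of 0.18. With the free RNA of barcodes of 1 to 100 UMIs taken off, the log2 ratio was 0.11 with an interval of -0.02 to 0.25, which includes 0. The thinned shares were 13.2% (10.7 to 16.1) of 634 LTS cells and 13.6% (11.3 to 16.3) of 764 control cells, so the small difference in summed level did not show in the share of cells. Monocyte-like cells stood 3.75-fold (3.43 to 4.09) above microglia-like cells in LTS and 4.03-fold (3.66 to 4.44) above them in control.

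The microglia-like class was made of 2 clusters in unequal parts. Cluster 14 had 413 LTS and 758 control cells with Cxcl16 at 199 CPM (186 to 212) in LTS against 169 CPM (157 to 181) in control. Cluster 15 was nearly all LTS, with 221 LTS cells at 143 CPM (116 to 174) and 6 control cells holding 1 Cxcl16 UMI. Cycling cells, those with Mki67 or Top2a, had 168 CPM in LTS against 147 CPM in control, and cells without either had 224 CPM in LTS against 223 CPM in control. Cxcl16 was thus lower in cycling than in other microglia-like cells in both libraries, and in cells without cycling transcripts the libraries had close values.

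Mature dendritic cell-like cells, which carry Ccr7 and Ccl22, were few, 19 in LTS and 18 in control. They fell below the 20 cells set for a level and are given because their Cxcl16 was high, a choice made after the values were seen. Cxcl16 was at 746 CPM (606 to 908) in LTS against 379 CPM (257 to 537) in control, a ratio of 1.97 (1.30 to 3.05). A Cxcl16 UMI was found in 17 of the LTS and 15 of the control cells, and 1 LTS cell held 16 of the 99 LTS UMIs. In LTS these cells stood level with monocyte-like cells (ratio 1.04, 0.835 to 1.28), and in control they stood below them (0.557, 0.376 to 0.796). These ratios pool UMIs, so deeper cells weigh more. Averaged per cell, control mature dendritic cell-like cells were at 625 CPM against 637 CPM in control monocyte-like cells. In LTS the averages were 833 CPM and 683 CPM. After thinning, 63.2% (38.4 to 83.7) of the LTS and 44.4% (21.5 to 69.2) of the control mature dendritic cell-like cells kept a Cxcl16 UMI, with overlapping intervals. The class's own markers were higher in LTS too, with Ccr7 at 2569 CPM in LTS against 818 CPM in control and Ccl22 at 942 CPM in LTS against 366 CPM in control. Fibroblast markers, which are also found in part of the unnamed non-immune cells, summed to 407 CPM in LTS against 843 CPM in control, and their part in the Cxcl16 ratio was not tested. Il15ra, which presents interleukin 15 to T cells, was at 188 CPM in LTS against 97.7 CPM in control cells of the class. These levels rest on the same few cells and are given without an interval.

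Conventional dendritic cell-like cells had Cxcl16 at 173 CPM (126 to 230) in LTS against 157 CPM (106 to 222) in control. Cells of low UMI count with microglia markers had 129 CPM in LTS against 131 CPM in control. The unnamed mixed cluster, led by myeloid genes such as Il1b and Csf3r but with few leukocyte transcripts per UMI, had 41.2 CPM (34.4 to 48.8) in LTS against 54.2 CPM (47.0 to 62.1) in control, a ratio of 0.760 (0.606 to 0.950) that turned to a log2 ratio of 0.22 when cells were weighted equally and 0.52 when cells were kept at 500 UMIs. The unnamed non-immune cells had 4.43 CPM in LTS against 5.41 CPM in control, a ratio of 0.819 (0.724 to 0.925). Free RNA, at 1 empty droplet per cell, would give 19.8 of their 474 Cxcl16 UMIs in LTS and 51.9 of 600 in control, and taking it off left 4.29 CPM in LTS and 5.10 CPM in control. With the free RNA of barcodes of 1 to 100 UMIs taken off, the log2 ratio was -0.08 and the interval of the log2 ratio, computed without the added 5 CPM, was -0.35 to 0.03, which includes 0. After thinning, 0.771% of the LTS and 0.607% of the control cells kept a Cxcl16 UMI. Endothelial cell-like cells had 9.94 CPM in LTS against 9.10 CPM in control, each from 13 UMIs.

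**Figure D5:**
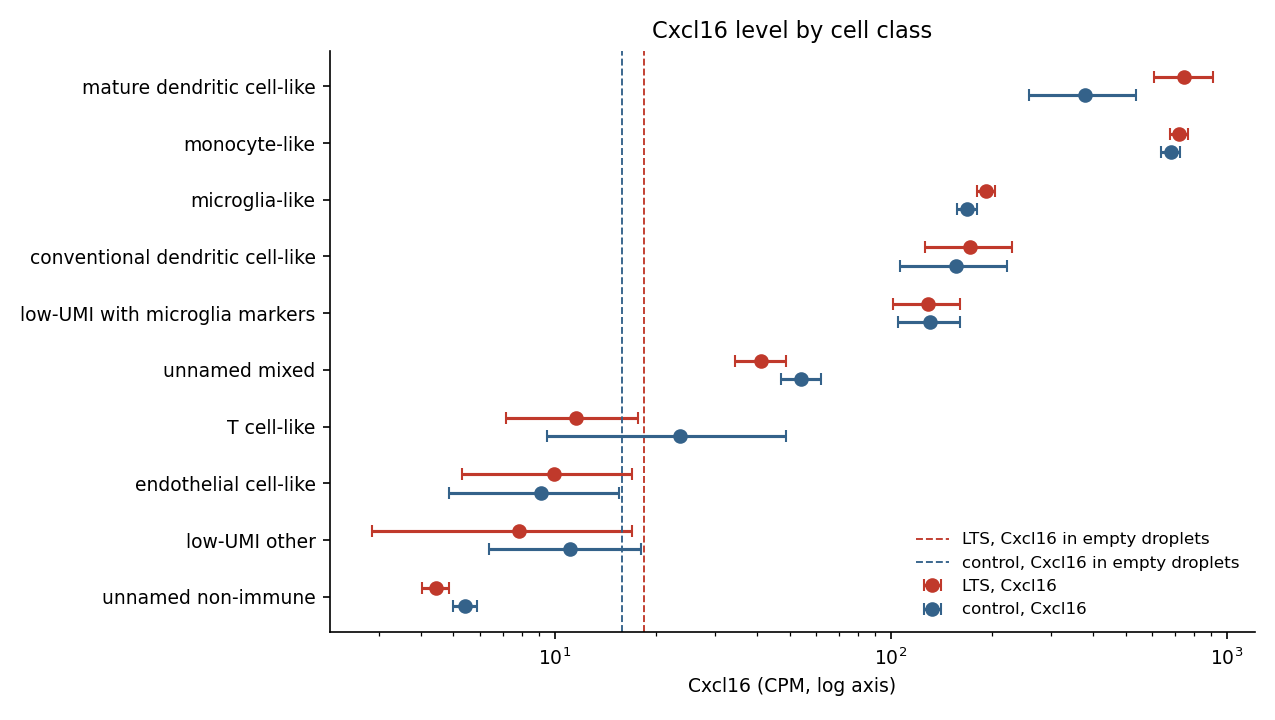
Cxcl16 level (CPM, log axis) by cell class with exact 95% Poisson intervals, LTS in red above control in blue, and dashed lines at the level in empty droplets of each library. Monocyte-like cells sit at 719 CPM in LTS against 680 CPM in control, mature dendritic cell-like cells at 746 CPM in LTS against 379 CPM in control, and the non-immune cells at 4.43 CPM in LTS against 5.41 CPM in control. The lines are no floor for cells in which free RNA is a small share of the UMIs.

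Few genes related to the ligand passed 2-fold in the cells that carried it. In microglia-like cells 0.14% of 6420 tested genes were at least 2-fold higher and 0.452% at least 2-fold lower in LTS. Of the 9 tested inducers of Cxcl16, such as interferon-γ and tumour necrosis factor signalling genes, 0 passed 2-fold, and the largest log2 ratios were 0.53 for Tnfrsf1b and 0.43 for Ifngr1. Of 6 other scavenger receptors tested 0 passed 2-fold, with Mrc1 at 0.60 and Stab1 at 0.36. Of 7 genes of shedding and signalling 0 passed 2-fold, with Pik3cg at 0.46, Rgs1 at 0.35 and the sheddases Adam10 and Adam17, named for their role, at 0.13 each. Of 12 other chemokines tested, 1 was lower, Ccl8, at 7.13 CPM in LTS against 26.7 CPM in control. The 15 tested dissociation stress genes had a median log2 ratio of 0.30, above the 0.18 of Cxcl16, and their part in the microglial ratio was not tested.

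In monocyte-like cells 0.334% of 6288 tested genes were at least 2-fold higher and 2.02% at least 2-fold lower in LTS. Cxcl16 is one of many chemokine genes detected in these cells. Of 16 other chemokines tested, 3 were 2-fold higher and 1 was 2-fold lower. Cxcl13, the B cell-attracting chemokine, was at 105 CPM in LTS against 11.9 CPM in control (log2 ratio 2.71), and Ccl8, a ligand of several inflammatory receptors, at 187 CPM in LTS against 64.2 CPM in control (1.47). Ccl24, an eosinophil attractant, had a log2 ratio of 1.08, and Ccl7, a monocyte attractant, one of -1.69. Of 5 other chemokine receptors tested and reported here, 1 was 2-fold higher, Cxcr4, the receptor of Cxcl12, at 70.8 CPM in LTS against 27.9 CPM in control. Inducers (10 tested), scavenger receptors (6 tested) and genes of shedding and signalling (7 tested) had 0 past 2-fold. Among them Tnfrsf1b had a log2 ratio of 0.88, Tnfrsf1a 0.60, Pik3cg 0.71, Adam17 0.46 and Scarb1 -0.30.

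The 6 genes with levels most like those of Cxcl16 across the same 23 profiles were AF251705 (r 0.968), Lrrc25 (0.966), Arl11 (0.966), Clec5a (0.965), Cd68 (0.962) and Slamf8 (0.957). Cd68 is a lysosomal glycoprotein of macrophages and Clec5a a C-type lectin receptor of myeloid cells. Each of the 6 was highest in a monocyte-like or conventional dendritic cell-like profile. Profiles needed at least 20 cells, so mature dendritic cell-like cells, 19 in LTS and 18 in control, were not among them.

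Zmynd15, which shares 552 bases with the 5′ end of Cxcl16 on the other strand, was looked at after the values were seen. It was at 369 CPM in LTS against 183 CPM in control mature dendritic cell-like cells, a ratio of 2.01 (1.11 to 3.87). In monocyte-like cells it was at 113 CPM in LTS against 69.8 CPM in control, a ratio of 1.62 (1.26 to 2.10). In microglia-like cells it was at 8.81 CPM in LTS against 7.87 CPM in control, where Cxcl16 had 1023 UMIs in LTS and 772 in control. The neighbour thus had its highest levels in the same 2 classes as the ligand, but was scarce in microglia-like cells. Of monocyte-like cells with a Zmynd15 UMI, 97.2% of 71 in LTS and 93.8% of 65 in control also had Cxcl16, against 79.4% in LTS and 68.8% in control of the other cells. Since the use of strand is not stated, reads of the shared 552 bases could be assigned to either gene. These bases lie at the 5′ ends of both genes, whereas the chemistry was 3′. How many reads fell in them was not tested.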

How the data were processed

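The values used were counts of UMIs per gene and barcode, deposited by the authors without normalization. The matrices name Cell Ranger 4, per the file headers, and mm10 is named in the submitters' processing notes. The sources used here do not state the use of strand. The matrices list all barcodes, so cells were kept at 1000 UMIs, 300 genes and at most 15% mitochondrially encoded UMIs. This removed 1 and 604 LTS barcodes and 0 and 817 control barcodes for genes and mitochondrial share. No other per-sample columns were present (0).

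Both libraries were clustered together without integration: UMIs scaled to 10000 and log-transformed, 2000 variable genes without Cxcr6, Cxcl16 and receptor segments, 30 principal components, 15 neighbours, Leiden resolution 1 (scanpy 1.11.5, igraph 0.11.9, python 3.11.15). To name a cluster, 3 or more markers of a class had to be in 10% of cells at 2 times the level elsewhere, unless its leading genes or UMI depth went against the name, or it lacked Y-linked transcripts of the host. The scoring rule was written after the data were seen. Scrublet marked 68 LTS cells and 0 control cells, so no doublets were removed.

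Counts were summed per class and scaled to CPM. Intervals are exact Poisson, Clopper-Pearson and conditional binomial. They treat UMIs as independent and leave out differences between cells. Log2 ratios add 5 CPM. Ratios were planned for classes with 50 cells in each library. Free RNA was taken from barcodes within 25% of the empty-droplet peak, at 415 UMIs in LTS and 615 in control. The ratio step was tested on simulated counts. Likeness named the 6 genes with the highest r among those reaching 50 CPM in any profile, and from each list at most the 4 largest log2 ratios plus those counted were named. The members, lists and markers were chosen with earlier results of these data known. Some genes of these lists and of the likeness ranking are not reported here, and counts over lists leave them out.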

Additional observations from a re-analysis of the deposited data

Results flagged for a closer look

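Cxcl16 was on opposite sides of 1 in different cell classes, with intervals that exclude 1, and the difference between classes was not tested. Its ratio of LTS over control was 1.97 (1.30 to 3.05) in mature dendritic cell-like cells and 1.14 (1.03 to 1.25) in microglia-like cells, but 0.760 (0.606 to 0.950) in the unnamed mixed cluster and 0.819 (0.724 to 0.925) in unnamed non-immune cells. With the free RNA of barcodes of 1 to 100 UMIs taken off, the intervals of the log2 ratio included 0 in microglia-like cells (-0.02 to 0.25) and in non-immune cells (-0.35 to 0.03). With that of the empty-droplet peak they were -0.03 to 0.25 and -0.43 to -0.07. The mixed cluster had a log2 ratio of 0.52 with cells kept at 500 UMIs. Averaged per cell, mature dendritic cell-like cells were at 833 CPM in LTS against 625 CPM in control, and their thinned shares had overlapping intervals.

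Empty droplets were not counted as cells and entered comparisons only through the estimate of free RNA. In them Cxcr6 was found at 3.61 CPM (2.76 to 4.65) in LTS and 0.745 CPM (0.473 to 1.12) in control. It came from 60 UMIs in 40225 LTS droplets and 23 UMIs in 49809 control droplets.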

How the results depend on the processing

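No paired analysis was possible because there was 1 library per group. The Cxcr6 log2 ratio in T cell-like cells stayed above 0 in all 17 alternatives run, between 0.46 and 1.62, but was smaller where cells with macrophage transcripts were left out. It was 0.92 without cells holding both Cd3 and C1q, 0.46 over all cells with Cd3 and no C1q, and 0.57 for such cells of the class, an alternative chosen after seeing the data like the gate on Cd3 alone and the empty-droplet profile. The Cxcl16 log2 ratio in microglia-like cells was 0.06 to 0.23 in 15 alternatives. In monocyte-like cells it turned to -0.10 with free RNA taken off by either profile. In the unnamed mixed cluster it turned to 0.52 at 500 UMIs and 0.22 with equal weight per cell. Taking free RNA of barcodes with 1 to 100 UMIs off put 91.9% of LTS Cxcr6 UMIs in T cell-like cells and 37.2% of control Cxcl16 UMIs in monocyte-like cells. At 500 UMIs, microglia-like cells held 37.9% of LTS Cxcl16 UMIs, and monocyte-like cells 40.0% in LTS and 31.6% in control. Unthinned, 74.1% of LTS and 28.1% of control T cell-like cells had Cxcr6. Genes 2-fold higher and lower numbered 16 and 46 in microglia-like and 35 and 198 in monocyte-like cells with 1 CPM added. Without a CPM filter they were 16 and 49 in microglia-like, 52 and 215 in monocyte-like, and 629 and 1017 in T cell-like cells. At 500 UMIs 67 were higher in monocyte-like cells. The causes were not tested. At 2000 UMIs no cluster was named monocyte-like, and thinned shares have no value with free RNA taken off. Of 347 values from all alternatives, 304 stayed within the interval, or within 1.5 times the count, of the value reported. Depth limits the control T cell-like level, which rests on 64 Cxcr6 UMIs in 96 cells.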
